A study of Mus musculus with 24 samples.

Results

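Circular RNAs of mouse cardiac fibroblasts were compared between hearts under pressure overload and sham-operated hearts at 8 weeks after surgery, the latest time of the study. All libraries labelled with that time were taken, 3 after thoracic aortic constriction (TAC) and 4 after sham surgery, 7 of the 24 libraries of the series; the others were collected at 1 week (8 libraries) and at 4 weeks (9 libraries). Every mouse was a male C57BL/6J of 8 weeks of age at surgery, and the labels name no transgene, deletion or drug treatment. In TAC a suture was tied around the transverse aorta and a needle laid beside it, and withdrawing the needle left the vessel narrowed. Sham mice had the operation with no suture tied. Fibroblasts were freed from the excised hearts by Langendorff perfusion, with no marker sort or gate named, and total RNA without ribosomal RNA was sequenced. The labels do not say whether a library came from 1 animal or several, so the p-values reflect the spread among libraries alone, and that spread could be technical.

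A circular RNA forms when the end of a downstream exon is spliced back to the start of an upstream exon. The closed ring has no free ends, which makes it resistant to exonucleases, and only reads across the back-splice junction tell it from the linear RNA of its host gene. Pressure overload makes the heart muscle thicken and activates resting fibroblasts, which divide, contract and deposit collagen and other matrix.

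The rings on which the 8-week comparison turned are identified by the 30 bases across their junctions, read 5′ to 3′ along the RNA from the GENCODE vM21 transcripts (GRCm38, the same assembly as mm10). Capitals mark the last 15 bases of the last exon in the ring, small letters the 15 bases of its first exon that follow, and the change of case is the join. Exon numbers are those of the GENCODE transcript matched to each junction. The 6 rings at the top are those of smallest p among the lower rings made of coding exons alone, the next pair are the same among the higher rings, the Ttn and Zcchc17 pairs share their last exon, and Nfix gave the most abundant ring.
Cpeb3 exons 8 to 10: GACATTGACAAACGGgctatgctttcctgc
Trim33 exons 2 to 4: GCACAAAGAACATAGttggtgtaatacggt
Mlip exons 5 to 10: TCTGAGAGCCAACTGcaatacaagaccatg
Asxl2 exons 2 to 5: GGTGGAAAAGGAAAGgtcttagaaaaatac
Lrp6 exon 2: AGATCCATCAAGTGGcggcccctttgttgc
Atf7ip exons 3 to 5: CTCACCGAGCTGCAGagggagaaaagagtg
Nav1 exons 2 to 3: TGACATCACAACGGGatccagagtcgcaga
Aff3 exons 2 to 4: CCCAAGCAGGCAGAGtgtctatgaaccgga
Ttn exons 85 to 118: CCCCTCCAGCTAAAGaaccccccaggttca
Ttn exons 84 to 118: CCCCTCCAGCTAAAGaacatgaagtgcctc
Zcchc17 exons 4 to 7: AGGAAGAGAAAGAAGgtctggtccatcgaa
Zcchc17 exons 6 to 7: AGGAAGAGAAAGAAGgcaagaagagaggcg
Nfix exon 2: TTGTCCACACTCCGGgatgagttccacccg

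No circular RNA differed between TAC and sham past an adjusted p of 0.05 (limma, Benjamini-Hochberg over all rows): 0 of 1717 (0%), with a smallest adjusted p of 0.459 that 7 rings shared. At an unadjusted p under 0.05, 45 rings were higher in TAC (2.62%) and 59 lower (3.44%), 104 in all (6.06%), where chance would give about 86. In 53 rings every TAC library lay above every sham library (3.09%), and in 52 every TAC library lay below (3.03%). Only 35 splits into 3 and 4 libraries exist, and a single split gives each of these orders. Shares of this size can therefore arise by chance, and a lack of overlap in a ring is a description only. The median log2 fold change was 0.03, with quartiles of -0.56 and 0.55. The typical standard error was 0.86 on the log2 scale, so differences of the size seen in most rings could not be resolved with these libraries.

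The libraries held 4685 to 6731 junction reads, spread over 1282 to 1454 rings, and 607 of the 1717 rings had a read in all 7. Totals were 5493 ± 417 in sham and 5698 ± 1023 in TAC (SD; exact permutation test, two-sided, p = 0.743; 3 against 4 libraries cannot go below 0.0571). Values are given as normalized junction reads, in which a single read was worth 0.857 to 1.20 in these libraries. Over the 272 rings with a mean of at least 5 reads, library pairs of the same group correlated at r = 0.470 to 0.646 on the log2 scale (9 pairs), and pairs across groups at 0.394 to 0.623 (12 pairs), so the groups did not separate. Sham replicate 1 had the lowest correlations, 0.394 to 0.545 with the other libraries.

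**Figure D1:**
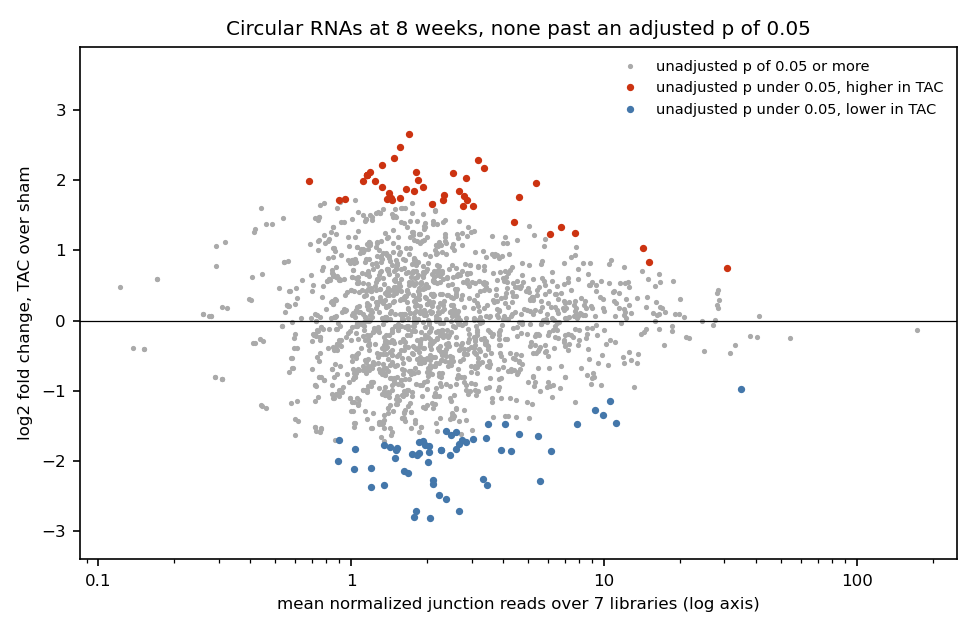
Log2 fold change of TAC over sham (vertical axis) against the mean normalized junction reads over the 7 libraries (horizontal, log axis) for 1717 circular RNAs. Coloured points are the 45 higher and 59 lower rings at an unadjusted p under 0.05; scarce rings spread widely around 0 and abundant ones stay near it.

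The abundant rings, where the data are most precise, bounded the difference best. Nfix exon 2 (chr8:84771784-84772315, minus strand; coding sequence), from the gene of a nuclear factor I transcription factor, stood at 135, 211, 214 and 161 normalized reads in the sham libraries and at 129, 192 and 171 in the TAC libraries. The groups overlapped throughout, and the log2 fold change of -0.13 had a 95% interval from -0.45 to 0.20, that is from 0.731-fold to 1.15-fold. Of all 1717 rings, 23 had intervals that stayed within a log2 change of 1 in either direction. They included Med13l exon 2, from a subunit of the Mediator kinase module (-0.74 to 0.26), and Mmp15 exons 2 to 3, from a membrane-bound matrix metalloproteinase (-0.55 to 0.69). For Adgre1 exons 11 to 12, from the gene of a macrophage surface antigen, the interval ran from -0.66 to 0.68. The 10 most abundant rings together held 9.21% of the normalized reads in sham and 8.32% in TAC.

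**Figure D2:**
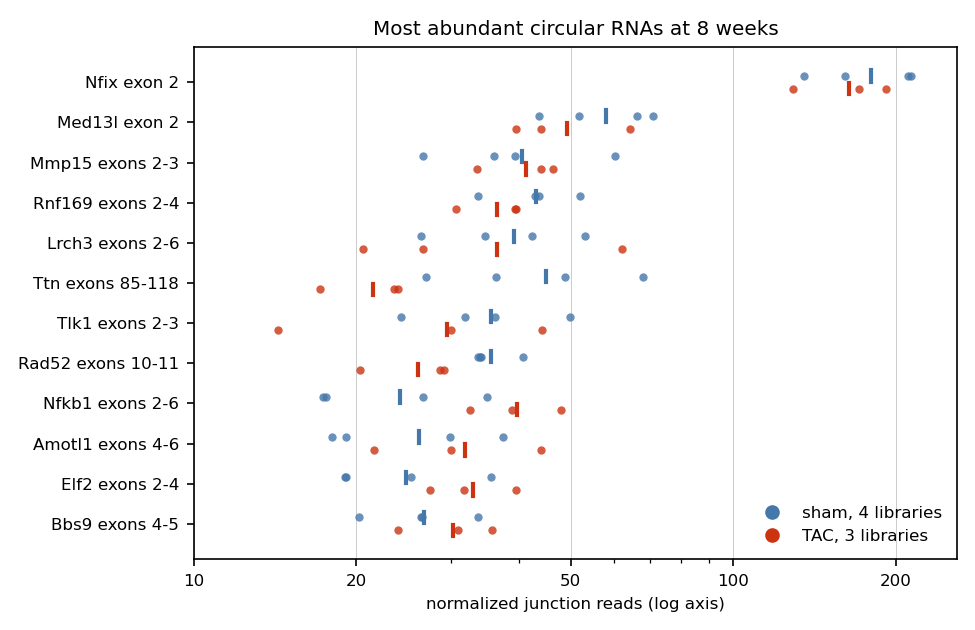
Normalized junction reads (log axis) of the 12 most abundant circular RNAs in each of the 4 sham and 3 TAC libraries; short bars are group means. In 10 of the 12 the groups overlap, and in Ttn exons 85 to 118 and Rad52 exons 10 to 11 all TAC points lie to the left of the sham points.

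Among the abundant rings, Ttn exons 85 to 118 differed most. Ttn encodes titin, the giant spring protein of the sarcomere, and this ring covers coding exons (chr2:76857904-76881839, minus strand). It stood at 68.1, 36.3, 26.9 and 48.8 in sham and at 23.9, 23.5 and 17.1 in TAC, means of 45.0 ± 17.8 and 21.5 ± 3.80 (SD). No TAC library reached the lowest sham library; the log2 fold change was -0.98 ± 0.39 (SE) with an adjusted p of 0.753. Nfkb1 exons 2 to 6, from the gene of the p105/p50 subunit of NF-kappaB, had the opposite direction, with 26.6, 17.6, 17.3 and 35.0 in sham and 47.9, 38.8 and 32.6 in TAC. Its highest sham library lay above the lowest TAC library, and the log2 fold change was 0.75 ± 0.34 (adjusted p = 0.753). Rad52 exons 10 to 11, from a DNA recombination gene, had 33.7 to 40.7 in sham and 20.3 to 29.1 in TAC, with a log2 fold change of -0.46 ± 0.34.

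The other rings of highest level without overlap between groups lay above sham in 5 cases and below it in 2, beside a second Ttn ring taken up below. Eefsec exons 3 to 4, from the elongation factor gene for selenocysteine, stood at 17.0, 11.0, 14.4 and 12.7 in sham and 18, 24.5 and 18.9 in TAC. Eps15l1 exons 15 to 21, from an adaptor gene of clathrin-mediated endocytosis, stood at 8.51, 16.5, 9.62 and 10.6 against 23.9, 18.4 and 18. Hipk3 exon 2, the source of a ring described in many tissues, stood at 14.9, 9.90, 15.4 and 13.8 against 15.6, 19.4 and 22.3. The gaps between the groups were narrow: the lowest TAC library of Eefsec and of Hipk3 exceeded the highest sham library by less than 1 read. The log2 fold changes were 0.56 ± 0.42, 0.84 ± 0.42 and 0.49 ± 0.43. Eed exons 9 to 11, from a subunit of the Polycomb complex that methylates histone H3, had 4.40 to 5.77 in sham and 7.15 to 12 in TAC. Smad1 exon 2, from a mediator of BMP signals, had 5.77 to 8.49 against 9.58 to 12. In the lower direction Ttc3 exons 2 to 11 had 6.60 to 26.6 in sham and 3.06 to 5.14 in TAC, and Pdzd2 exons 3 to 5 had 6.38 to 12.5 against 4.09 to 5.14.

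The rings with the smallest p-values were scarce. Lower in TAC, the smallest p belonged to Cpeb3 exons 8 to 10 (chr19:37044522-37068291, minus strand), from the gene of a cytoplasmic polyadenylation element binding protein that controls translation. It had 3.19, 5.50, 5.77 and 3.18 normalized reads in sham, and 0, 1.02 and 0 in TAC, from 17 reads and 1 read. All sham libraries lay above all TAC libraries; the log2 fold change was -2.71 ± 0.80 (SE; 95% interval -4.29 to -1.14; adjusted p = 0.459). Snrk exons 2 to 3 (chr9:122131893-122137601, plus strand), from a kinase gene related to AMPK, stood at 13.8, 6.60, 6.74 and 6.36 in sham and 2.39, 3.06 and 0 in TAC. Its groups did not overlap either, but sham replicate 1 was well above the other sham libraries and 1 TAC library had no read. The log2 fold change, -2.29 ± 0.69 (adjusted p = 0.459), was -1.39 without TAC replicate 3.

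Among the 12 lower rings, 5 had no read in any TAC library. Trim33 exons 2 to 4 (chr3:103310309-103311513, plus strand), from a ubiquitin ligase gene that acts on SMAD4, had 4.26, 2.20, 3.85 and 2.12 in sham, 12 reads in all. Asxl2 exons 2 to 5 (chr12:3442474-3457209, plus strand), from a Polycomb-associated gene, had 6.38, 2.20, 1.92 and 2.12, also 12 reads. Mlip exons 5 to 10 (chr9:77173959-77217048, minus strand), from a muscle gene whose protein binds lamin A, had 1.06, 2.20, 5.77 and 5.30, from 14 reads. A count of 0 in all 3 TAC libraries allows up to 3 reads, 1.03 normalized reads. With the sham means taken as exact, that limit put TAC levels at least 3.03-fold lower for Trim33, 3.08-fold for Asxl2 and 3.5-fold for Mlip. The same bound was at least 2.04-fold for Ascc2 exons 3 to 5, from a DNA repair and ribosome quality control gene, and at least 2.32-fold for Senp6 exons 2 to 5, from a SUMO protease gene. These bounds cover the counting error of the TAC libraries only, not that of the sham reads. The rings were also picked for their small p, which favours large differences. Of all 1717 rings, 24 had at least 4 sham reads and no TAC read, and 4 had at least 4 TAC reads and no sham read. The 2 counts cannot be compared directly, since sham had 4 libraries with 21972 reads and TAC 3 libraries with 17094 reads.

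Lrp6 exon 2 (chr6:134541652-134542045, minus strand), from the gene of a Wnt co-receptor, stood at 7.45, 3.30, 2.89 and 2.12 in sham and at 0, 0 and 0.857 in TAC. Atf7ip exons 3 to 5 (chr6:136563760-136566785, plus strand), from a partner gene of the SETDB1 histone methyltransferase, stood at 6.38, 3.30, 1.92 and 3.18 against 0, 0 and 0.857. Kmt5b exons 2 to 4, from a histone H4 methyltransferase gene, stood at 4.26, 3.30, 3.85 and 2.12 against 1.20, 0 and 0. In each of the 3 rings a single TAC read was counted and no TAC library reached a sham library; the log2 fold changes were -2.54 ± 0.85, -2.49 ± 0.87 and -2.33 ± 0.84. Epb41l2 exons 2 to 3, from a gene linking membrane and cytoskeleton, had 2.13 to 8.49 in sham and 0, 0 and 3.43 in TAC. Prr14l exons 4 to 9, a ring of 5072 bases, had 10.6, 11.0, 9.62 and 3.18 against 4.79, 4.09 and 0. In these 2 rings a single library made the groups overlap. The log2 fold change of Prr14l, -1.86, was -0.76 without TAC replicate 3, the library with no read.

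Higher in TAC, the smallest p belonged to Nav1 exons 2 to 3 (chr1:135532349-135537299, minus strand), from the gene of a microtubule-binding neuron navigator protein. It had 0, 0, 0.962 and 0 in sham and 3.59, 3.06 and 4.29 in TAC, from 1 read and 11 reads. Every TAC library lay above every sham library (log2 fold change 2.65 ± 0.83, 95% interval 1.03 to 4.28, adjusted p = 0.459). Aff3 exons 2 to 4 (chr1:38534906-38536946, minus strand), from a gene of a transcription elongation factor family, stood at 3.19, 2.20, 0 and 4.24 in sham and 14.4, 10.2 and 3.43 in TAC. Its lowest TAC library fell inside the sham range; the log2 fold change of 1.96 ± 0.63 (adjusted p = 0.459) was 1.24 without sham replicate 3, the library with no read. Tmbim6 exons 2 to 3, from the Bax inhibitor 1 gene of the endoplasmic reticulum, had 2.13, 0, 0 and 3.18 against 4.79, 6.13 and 6.00. Zbtb46 exons 1 to 2, from a transcription factor gene of dendritic and endothelial cells, had 1.06, 3.30, 0.962 and 0 against 5.99, 7.15 and 5.14. In both the TAC libraries sat close together above the sham libraries, with log2 fold changes of 2.29 ± 0.79 and 2.18 ± 0.76 (adjusted p = 0.625 for each).

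The remaining higher rings had 4 sham reads or fewer. Parvb exons 2 to 4, from the gene of the focal adhesion protein beta-parvin, had 0, 0, 0.962 and 0 in sham and 1.20, 3.06 and 5.14 in TAC. Paip1 exons 2 to 4, from a poly(A)-binding protein partner gene, had 0, 0, 0.962 and 0 against 3.59, 2.04 and 1.71. Both rested on a single sham read, and neither had an overlap between groups. The junction in Sparc, the gene of a collagen-binding matrix protein, joined positions only 41 bases apart (chr11:55394800-55394840, minus strand), neither at an annotated exon end. It had 0, 0, 0 and 1.06 in sham and 3.59, 2.04 and 4.29 in TAC; a junction of this kind need not come from a spliced ring. Lncpint (chr6:31166476-31181149, minus strand), a long noncoding RNA gene, had 1.06, 2.20, 0 and 1.06 against 7.18, 5.11 and 3.43. Its ends match exon ends that no single annotated transcript joins in this order. Akap2 exon 2 (chr4:57883024-57883202, plus strand), Zfp827 exons 5 to 8, Xpo1 exons 3 to 5 and Wwc2 exons 2 to 4 complete the 12, with log2 fold changes of 2.12 ± 0.87, 2.22 ± 0.87, 2.11 ± 0.88 and 2.01 ± 0.84. Akap2 encodes a kinase anchor, Xpo1 the nuclear export receptor and Wwc2 a regulator of Hippo signalling.

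**Figure D3:**
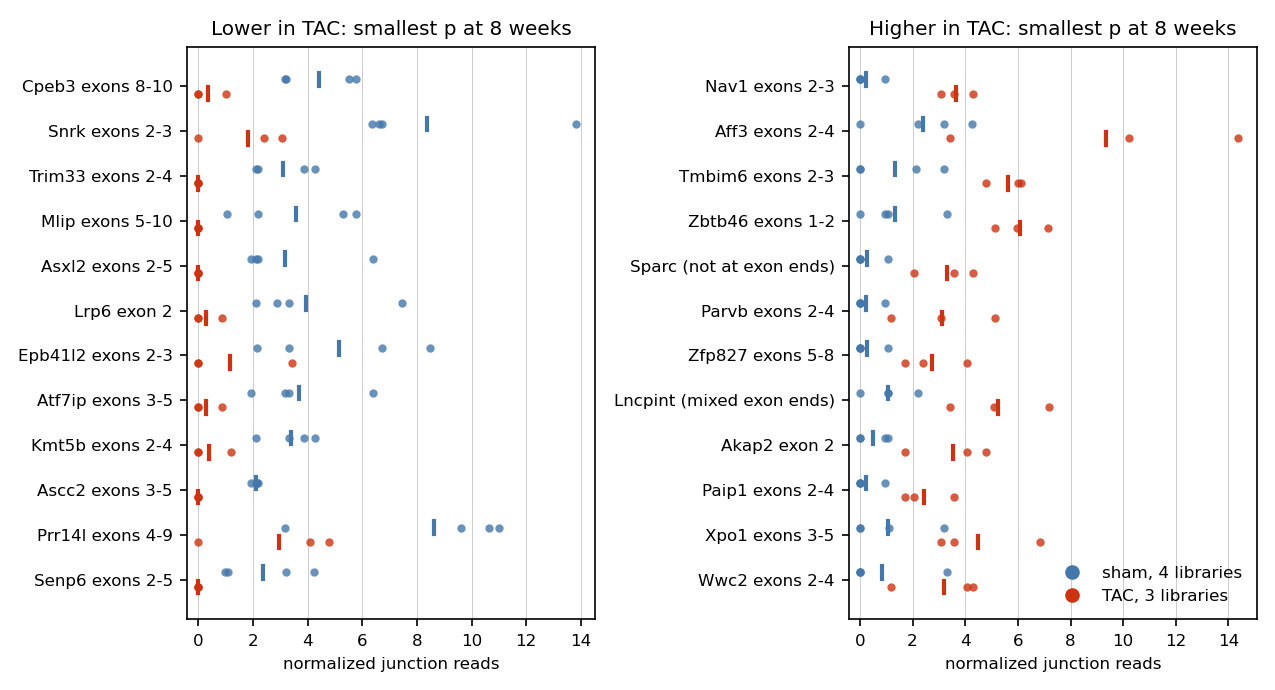
Normalized junction reads in each library for the 12 circular RNAs of smallest p in each direction; points are libraries and short bars group means. Most points lie below 8 normalized reads, and in 5 rings of the left panel all 3 TAC points sit at 0.

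With the rings of each host gene summed, 0 of 1188 hosts were called (0%), with 28 higher and 36 lower at an unadjusted p under 0.05. Cpeb3 had the smallest adjusted p, 0.0885 (limma, Benjamini-Hochberg over all hosts), with a log2 fold change of -2.95 ± 0.72. Its summed level was 7.45, 7.70, 7.70 and 3.18 in sham and 0, 2.04 and 0 in TAC, since the ring of exons 9 to 10 (4.26, 2.20, 1.92 and 0 against 0, 1.02 and 0) pointed the same way. Asxl2 followed (-2.87 ± 0.79, adjusted p = 0.227), where the ring of exons 2 to 7 had 3.19, 2.20, 0.962 and 2.12 in sham and 0, 1.02 and 0 in TAC. Both genes thus had a pair of rings, sharing an exon end, that were scarcer in TAC. Without TAC replicate 2, which held its only TAC reads, Cpeb3 passed with an adjusted p of 0.00976 (limma). Without any other 1 library it did not pass, with an adjusted p between 0.0639 and 0.646. Tbc1d14, a regulator of autophagy with 3 rings, summed to 11.7, 8.80, 19.2 and 8.49 in sham and 0, 11.2 and 11.1 in TAC (-1.54 ± 0.54, adjusted p = 0.712). Only TAC replicate 1 lay below the sham range, and without it the log2 fold change for Tbc1d14 was -0.027.

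Titin was the host with the most reads among these. Its 3 rings summed to 94.7, 53.9, 38.5 and 74.2 in sham and to 27.5, 31.7 and 25.7 in TAC, with no overlap (-1.12 ± 0.35, adjusted p = 0.420). Ttn exons 84 to 118 (chr2:76857904-76884197, minus strand), which differs from the abundant ring only by an added upstream exon, stood at 20.2, 13.2, 8.66 and 20.2 in sham and 3.59, 8.17 and 4.29 in TAC. Every TAC library lay below every sham library (-1.46 ± 0.61, adjusted p = 0.753). Ttn exons 104 to 110, within the same stretch, had 6.38, 4.40, 2.89 and 5.30 against 0, 0 and 4.29, where TAC replicate 3 lay inside the sham range. The 3 rings overlap in sequence and come from the same gene, so they are not independent of each other.

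Titin is a cardiomyocyte gene. Among 17 rings of cardiomyocyte marker genes, 5 (29.4%) had an unadjusted p under 0.05, all of them lower in TAC, beside 6.06% of all rings. They were the 3 Ttn rings, Mlip exons 5 to 10 and Corin exons 7 to 10 (4.17 in sham and 1.08 in TAC), the last from the protease gene that activates atrial natriuretic peptide. The list split into 10 lower and 7 higher rings, with a median of -0.19. Slc8a1 exons 3 to 9, the sodium-calcium exchanger ring, had means of 5.76 and 2.11 (unadjusted p = 0.112), while Ryr2 exons 59 to 62 (4.71 and 4.79), Mlip exons 6 to 11 (3.70 and 3.58) and Camk2d exons 10 to 12 (5.36 and 7.35) had like or higher means in TAC. Summed over the list, sham libraries held 74.1 to 142 normalized reads and TAC libraries 56.6 to 73.6, a ratio of 0.606. It was 0.549 to 0.677 without any 1 library, and the highest TAC sum lay just under the lowest sham sum. Both rested on titin: without the 3 Ttn rings, a setting chosen after seeing the data, the ratio was 0.872, with overlapping sums of 35.6 to 47.7 in sham and 30.9 to 41.9 in TAC, and the median of the other 14 rings was 0.01. Fewer cells of a type and less RNA per cell cannot be told apart in such bulk libraries.

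The fibroblast label was checked against marker genes of the cells a heart preparation can hold. Circular RNAs came from 12 of 45 listed genes of resting cardiac fibroblasts, 11 of 57 of cardiomyocytes, 14 of 45 of endothelium, 2 of 16 of mural cells and 13 of 68 of macrophages and other leukocytes; none of these genes was at 0 in all 7 libraries. Many defining genes, among them Pdgfra and Tcf21 for fibroblasts, Myh6 and Tnnt2 for cardiomyocytes and Ptprc for leukocytes, had no circular RNA in the table, so the label could not be checked on them. Fibroblast rings summed to 14.9 to 43.1 normalized reads per library, cardiomyocyte rings to 56.6 to 142, endothelial rings to 53.9 to 73.6 and leukocyte rings to 117 to 177. These lists hold 16, 17, 21 and 31 rings, and Ttn alone gave 65.3 of the mean cardiomyocyte sum of 108 in sham. The sums therefore do not measure the share of each cell type. Rings of muscle, endothelial and leukocyte genes were thus present in every library, and their part in the other results was not tested.

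Of 16 rings of resting fibroblast marker genes, 11 were higher in TAC and 5 lower, with a median log2 fold change of 0.56 against 0.03 for all rings, but only Nav1 exons 2 to 3 had an unadjusted p under 0.05. Svep1 exons 2 to 3, from the gene of a large matrix protein that binds integrins, stood at 1.06, 5.50, 9.62 and 6.36 in sham and 15.6, 9.19 and 6.86 in TAC. The groups overlapped, with sham replicate 1 far below the rest; the log2 fold change of 1.05 ± 0.56 (adjusted p = 0.810) was 0.49 without it. Fbn1 exons 3 to 6, of fibrillin, had 0, 0, 4.81 and 0 against 2.39, 4.09 and 0.857, and Dcn exons 5 to 7, of decorin, had 0, 2.20, 0 and 0 against 1.20, 1.02 and 1.71. The summed list was 14.9, 31.9, 31.8 and 27.6 in sham and 43.1, 40.9 and 36.0 in TAC, a ratio of 1.51 without overlap of the groups. Leaving out any library kept the ratio between 1.31 and 1.62.

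Of 26 rings of extracellular matrix genes, whose products build up in fibrosis, 14 were higher and 12 lower, with a median of 0.10. The summed ratio of 1.09 ran from 0.999 without sham replicate 1 to 1.24 without sham replicate 2. Mmp15 exons 2 to 3, the most abundant, stood at 26.6, 60.5, 39.5 and 36.1 in sham and 33.5, 43.9 and 46.3 in TAC. Apart from the Sparc junction no ring of the list had an unadjusted p under 0.05. Ltbp1 exon 3, from a gene that anchors latent TGF-beta in the matrix, had means of 2.82 and 0.286, whereas Ltbp1 exons 2 to 3 had 4.76 and 5.87. Adhesion and actin genes, which anchor cells and carry tension, gave 37 higher and 25 lower of 62 rings, with 2 (Nav1 and Dock1 exons 49 to 51) and 3 (Epb41l2, Arhgap10 and Ablim1) at an unadjusted p under 0.05, or 8.06% beside 6.06% of all rings. Their median was 0.06 while their summed ratio was 0.931, so the measures differed in sign. Arhgap10 exons 14 to 18, from a GTPase-activating protein gene, had 11.7, 13.2, 9.62 and 14.8 in sham and 15.6, 2.04 and 2.57 in TAC. There a single TAC library lay above all sham libraries and the others far below them. Ablim1 exons 5 to 6, from an actin-binding protein gene, had 5.32, 6.60, 4.81 and 7.42 against 2.39, 0 and 3.43 without overlap.

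Among the signalling lists, TGF-beta, BMP and SMAD genes had 13 higher and 8 lower of 21 rings, with Acvr2a and Trim33 at an unadjusted p under 0.05 (9.52%, beside 6.06% of all rings); with TMM scaling no higher ring of the list had one. Acvr2a exons 2 to 4, of an activin receptor, stood at 16, 6.60, 3.85 and 0 in sham and 10.8, 7.15 and 9.43 in TAC, with full overlap. Its log2 fold change of 1.25 ± 0.63 was 0.25 without sham replicate 4, the library with no read. The rings of Smad4, the shared SMAD partner, differed in sign: exons 5 to 8 had means of 8.62 and 11.3, and exons 2 to 8 had 3.92 and 1.65. The list's median log2 fold change was 0.30 and its mean 0.0019. Wnt and Hippo genes split evenly, 12 and 12 of 24, with a median of -0.12 but a summed ratio of 1.05 (0.997 to 1.16 without any 1 library), and with Lrp6 exon 2 and Stk3 exons 2 to 4 (2.13, 3.30, 3.85 and 3.18 against 0, 0 and 3.43) among the lower and Wwc2 and Zfp532 exons 6 to 7 among the higher rings. Receptor tyrosine kinase and MAPK genes gave 18 higher and 20 lower of 38, with a ratio of 0.956 (0.874 to 1.01 without any 1 library). Frs2 exons 2 to 4 (means 3.04 and 0.286), an FGF receptor adaptor, was the only ring of that list with an unadjusted p under 0.05. Fgfr1 exon 3 had 3.19, 3.30, 4.81 and 2.12 in sham and 0, 2.04 and 1.71 in TAC, and Egfr exons 14 to 15 had 3.19, 4.40, 3.85 and 3.18 against 0, 1.02 and 4.29.

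The cell cycle list had the highest summed ratio of the 16 lists. Of its 9 rings, 8 were higher in TAC, none with an unadjusted p under 0.05, and the sum was 20.2, 12.1, 11.5 and 18 in sham and 28.7, 23.5 and 35.1 in TAC. All TAC sums lay above all sham sums, and the ratio of 1.88 stayed between 1.69 and 2.10 without any 1 library. Bub1b exons 17 to 19, of a spindle checkpoint kinase gene, stood at 6.38, 3.30, 4.81 and 6.36 against 9.58, 8.17 and 10.3 without overlap (0.82 ± 0.58, adjusted p = 0.885). Bub1b exon 9 had 0, 1.10, 0 and 0 against 2.39, 0 and 4.29. Fancl exons 2 to 7, of a DNA crosslink repair ligase gene, had 3.19, 3.30, 2.89 and 1.06 against 13.2, 3.06 and 5.14. The list rests on 59 reads in sham and 88 in TAC.

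Chromatin and transcription regulators were the largest list, and 58 of 96 rings were lower in TAC against 38 higher, with a median of -0.16. At an unadjusted p under 0.05, 8 were lower and 1, Aff3, higher, 9.38% of the list beside 6.06% of all rings. Besides Trim33, Atf7ip and both Asxl2 rings the lower ones were Phf21a exons 15 to 17 (means 2.11 and 0), Kat6b exons 8 to 12 (2.84 and 0.798), Ezh2 exons 2 to 15 (2.33 and 0.399) and Rere exons 2 to 4 (3.93 and 1.20). Ezh2, the Polycomb methyltransferase, had a far more abundant ring of exons 2 to 3 (chr6:47576536-47577667, minus strand) that stood at 19.2, 7.70, 19.2 and 30.8 in sham and 21.5, 7.15 and 15.4 in TAC, with complete overlap. The summed ratio of the list was 0.915. Hosts of widely reported circular RNAs, a list that shares Ttn and Lrp6 with others, had 52 lower and 39 higher of 91 rings, 6 and 0 at an unadjusted p under 0.05 (6.59%, near the 6.06% of all rings, with 3 of the 6 being overlapping Ttn rings), and summed to 802 to 891 in sham and 700.3 to 777 in TAC (ratio 0.874). Plce1 exon 2, of a phospholipase C gene (2.28 and 0.286), was the other lower ring not named above.

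RNA-binding and splicing factors had 20 higher and 24 lower of 44 rings, with Cpeb3 exons 8 to 10 alone at an unadjusted p under 0.05, and a summed ratio of 1.01 that was 0.982 with TMM scaling. Cnot4 exons 2 to 3, of the CCR4-NOT deadenylase complex, had 8.51, 4.40, 7.70 and 2.12 in sham and 1.20, 1.02 and 3.43 in TAC. Ubiquitin and proteasome genes had 24 higher and 23 lower of 47 (ratio 1.00, or 0.968 with TMM scaling). Ankib1 exons 2 to 5 stood at 28.7, 7.70, 18.3 and 13.8 against 9.58, 8.17 and 6.00. Endocytosis and vesicle traffic genes had 32 higher and 24 lower of 56, with 2 in each direction at an unadjusted p under 0.05, a share of 7.14% near the 6.06% of all rings (ratio 1.10). Dennd1a exons 4 to 5, of a Rab exchange factor, had 1.06, 0, 0.962 and 0 against 0, 9.19 and 5.14, and Snx5 exons 5 to 11, of a sorting nexin, had 3.19, 2.20, 1.92 and 3.18 against 0, 0 and 1.71.

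Endothelial rings were 13 higher and 8 lower of 21 (ratio 1.05, 0.952 to 1.12 without any 1 library), with Zbtb46 alone at an unadjusted p under 0.05. Pecam1 exons 6 to 7, of the adhesion molecule CD31, had 2.13, 0, 0 and 1.06 in sham and 2.39, 2.04 and 3.43 in TAC. The leukocyte list had 17 higher and 14 lower of 31 rings (ratio 0.963, 0.898 to 1.03 without any 1 library). At an unadjusted p under 0.05 it held Aff3 among the higher and 1 Mrc1 ring among the lower. Mrc1 exons 12 to 15, of the macrophage mannose receptor CD206, stood at 21.3, 4.40, 18.3 and 13.8 against 5.99, 5.11 and 5.14. The TAC libraries lay close together inside the low end of a wide sham range (-1.14 ± 0.52, adjusted p = 0.753), and Mrc1 exons 8 to 9 had 0, 0, 1.92 and 3.18 against 4.79, 2.04 and 1.71. Adgre1 exons 11 to 12 stood at 20.2, 34.1, 27.9 and 26.5 against 19.2, 29.6 and 34.3, with complete overlap. The mural list held only 2 rings, both lower (ratio 0.607, but 1.19 without sham replicate 2).

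**Figure D4:**
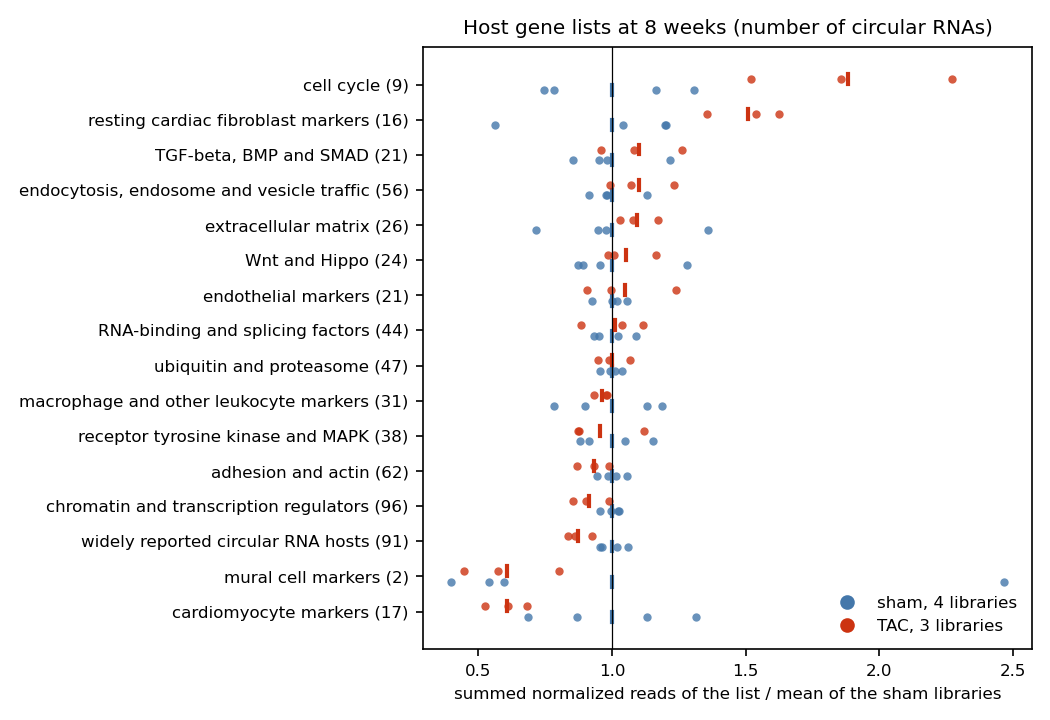
Summed normalized reads of each host gene list in each library, divided by the mean of the sham libraries (horizontal axis); points are libraries, short bars group means, and the number of rings stands in brackets. The TAC points of the cell cycle and resting fibroblast lists lie to the right of all sham points, and those of the cardiomyocyte list, most of whose sum in sham comes from Ttn, to the left of the sham mean. Those of the widely reported hosts, a list that also holds the Ttn rings, lie to the left of all sham points.

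In the same fit 25 rings passed an adjusted p of 0.05 at 1 week (1.46%) and 2 at 4 weeks (0.116%), each against its own sham group. Of the 13 rings higher at 1 week, 8 had a positive log2 fold change at 8 weeks, beside 883 of all 1717 rings. None had an unadjusted p under 0.05 there, and their median was 2.04 at 1 week and 0.07 at 8 weeks. The rings were picked by their 1-week values, and smaller values at another time can follow from that choice alone. Itgbl1 exons 3 to 7, of an integrin beta-like matrix gene, had a log2 fold change of 3.39 at 1 week, 1.79 at 4 weeks and -0.15 at 8 weeks. Tns3 exons 18 to 20, of the focal adhesion protein tensin 3, went through 2.48, 0.99 and 0.04, and Mettl9 exons 2 to 4, of a histidine methyltransferase gene, through 1.83, 0.53 and 0.09. Ezh2 exons 2 to 3 went through 1.60, 0.75 and -0.35. Bub1b exons 17 to 19 had 1.85, -0.72 and 0.82.

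Of the 12 rings lower at 1 week, picked in the same way, 11 had a negative log2 fold change at 8 weeks, beside 834 of all 1717. Only 1, Ttn exons 85 to 118, had an unadjusted p under 0.05, and the median was -2.30 at 1 week and -0.31 at 8 weeks. Ttn exons 85 to 118 was lower in TAC at each time, with -1.55 at 1 week, -1.51 at 4 weeks and -0.98 at 8 weeks, and Ttn exons 84 to 118, called at 4 weeks, had -1.45, -2.23 and -1.46. The difference between 8 weeks and 4 weeks was 0.53 ± 0.52 (adjusted p = 0.900) and 0.77 ± 0.81 (adjusted p = 0.908) for these rings. Ryr2 exons 59 to 62 (chr13:11680966-11688013, minus strand), comes from the gene of the sarcoplasmic calcium release channel. Its log2 fold change was -3.39 at 1 week, -0.68 at 4 weeks and -0.02 at 8 weeks, where it stood at 7.45, 3.30, 3.85 and 4.24 in sham and 2.39, 5.11 and 6.86 in TAC. Agap1 exons 4 to 6, of an Arf GTPase-activating protein gene, was the ring with the opposite sign at 8 weeks (-2.40 and 0.53). The 2 junctions in Gm28437, 63 and 62 bases across and not at exon ends, had -1.39 and -1.11 at 8 weeks.

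**Figure D5:**
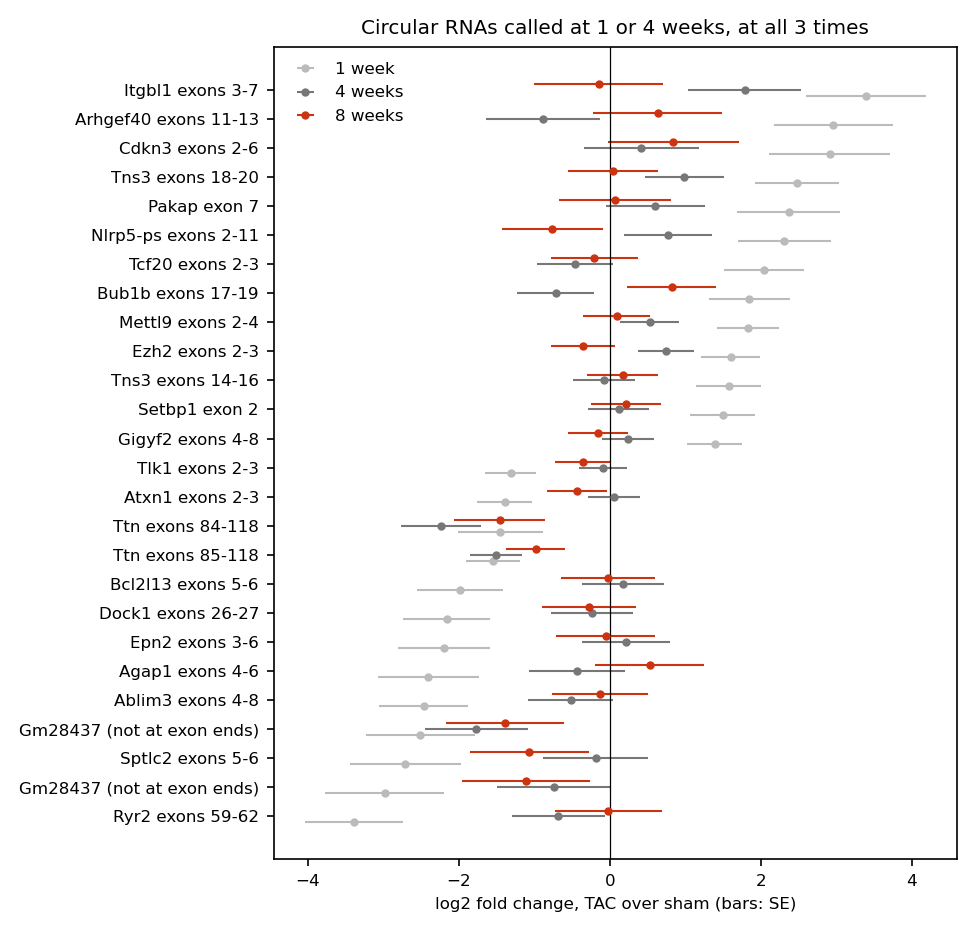
Log2 fold change of TAC over sham (bars: standard error) at 1, 4 and 8 weeks for every circular RNA called at 1 or 4 weeks. The 8-week points gather around 0 for most rings and stay near or below -1 for both Ttn rings, both Gm28437 junctions and Sptlc2 exons 5 to 6 (-1.06).

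The change of the TAC effect with time was tested directly, and no ring passed: 0 of 1717 (0%) for 8 weeks against 1 week and 0 of 1717 (0%) for 8 weeks against 4 weeks. At an unadjusted p under 0.05, 59 rings had a higher and 89 a lower effect at 8 weeks than at 1 week. For 8 weeks against 4 weeks, 32 had a higher and 77 a lower effect. Chance would give about 86 of the 1717 rings such a p in each comparison, with both directions counted. Whether the lean toward lower effects exceeds chance was not tested. The smallest adjusted p, 0.0557 (limma, Benjamini-Hochberg), was shared by S100pbp exons 2 to 5 and Lncpint. S100pbp, the gene of a calcium-binding protein partner, had log2 fold changes of 2.52 at 1 week and -2.27 at 8 weeks, where it stood at 6.38, 4.40, 0.962 and 2.12 in sham and 0, 0 and 0.857 in TAC. Lncpint went the other way, -2.45 at 1 week and 2.04 at 8 weeks. Prr14l had 1.51 and -1.86, and Myocd exons 2 to 5, of the smooth and cardiac muscle coactivator myocardin, had -2.06 and 1.35, with 5.32, 1.10, 3.85 and 2.12 in sham and 7.18, 8.17 and 7.71 in TAC at 8 weeks. The adjusted p of both differences was 0.144, and that of Ryr2 exons 59 to 62 was 0.150. S100pbp, Lncpint, Prr14l and Myocd were picked for a small p of the difference between 8 weeks and 1 week, which favours opposite signs.

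Against 4 weeks the smallest adjusted p, 0.193, was shared by rings of Rabep1, Pik3c2a, Parvb and Malat1. Rabep1 exons 2 to 3, of a Rab5 effector in endosome fusion, had log2 fold changes of 1.98 at 4 weeks and -0.91 at 8 weeks, with 12.8, 4.40, 11.5 and 12.7 in sham and 12, 1.02 and 7.71 in TAC at the later time. Pik3c2a exons 6 to 9, of a class II PI3-kinase gene, had 2.74 and -1.08, and Cnot4 exons 2 to 3 had 1.84 and -1.36 (adjusted p = 0.233). Parvb exons 2 to 4 had -1.91 and 2.31, and a short junction within the noncoding RNA Malat1 (chr19:5801899-5801943, minus strand) had -2.95 and 1.48. In each of these 5 rings the log2 fold changes at 4 and 8 weeks had opposite signs. The rings were picked for the smallest p of that difference, which favours opposite signs.

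Within host genes, 848 rings of the 319 hosts with at least 2 rings were tested for a change in their share of the host, and 0 (0%) passed. The smallest adjusted p, 0.566 (limma, Benjamini-Hochberg), belonged to Zcchc17, a ribosome-associated zinc-knuckle gene whose 2 rings share the last exon and hence the first 15 bases printed above. The longer ring, exons 4 to 7 (chr4:130327193-130338584, minus strand), stood at 3.19, 2.20, 3.85 and 3.18 in sham and 0, 0 and 3.43 in TAC. The shorter, exons 6 to 7 (chr4:130327193-130329674), stood at 0, 0, 0 and 4.24 against 2.39, 5.11 and 1.71. The TAC libraries with no read of the longer ring had reads of the shorter, but sham replicate 4 and TAC replicate 3 held both. Nav1 exons 2 to 3 (share 2.73 on the log2 scale), Atf7ip exons 3 to 5 (-2.77), Zfp827 exons 5 to 8 (2.37) and Prex2 exons 36 to 37 (2.33) followed, each with an adjusted p of 0.725. For Zfp827, a telomere and chromatin zinc-finger gene, the main ring of exons 6 to 8 had means of 18.8 and 19.7, while that of exons 5 to 8 had 0.265 and 2.73.

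By structure, of 105 single-exon rings 48 were higher and 57 lower (median -0.17), of 1181 rings of 2 to 4 exons 616 and 565 (median 0.04), and of 371 rings of 5 or more exons 193 and 178 (median 0.05). Rings of coding exons alone had 39 higher and 40 lower at an unadjusted p under 0.05 among 1359, and rings with untranslated exons 4 higher and 16 lower among 291; these shares, 5.81% and 6.87%, were near the 6.06% of all rings. Rings that begin at exon 2, the first exon with an upstream splice site, numbered 595 and had 12 higher and 25 lower (6.22%). With all rings split into 4 equal classes by their mean over the 24 libraries, 4.42% of the scarcest class had an unadjusted p under 0.05, then 4.66%, 10.0% and, in the most abundant class, 5.13%. The median log2 fold change of these classes lay between 0.01 and 0.06.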

How the data were processed

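Circular RNA junction reads were measured in 24 libraries; the 7 from 8 weeks are described. Reads went through FastQC, Trimmomatic and STAR with the mm10 build, per the submitters' processing notes. The deposited signal is junction reads divided by a factor per library with 0.01 added, as the values show; 100% of values were whole reads within 0.001 after removing the offset. The steps that normalized and filtered the circular RNA calls remain not given in the sources used here. Junctions were annotated with GENCODE vM21; 1666 of 1717 had both ends at exon boundaries. The main test was limma 3.58.1 (R 4.3.3) with an intensity trend on log2(normalized reads + 0.5), all 24 libraries in 6 groups, two-sided, Benjamini-Hochberg over all rows; a fold change on this scale understates that of scarce rings. Share of host used diffSplice. The scripts were tested on simulated data. Column names were matched to samples by description, and replicates are numbered as in the titles. No 2 libraries were identical; the largest chi-square p between libraries of a group was 0.00101. Members and gene lists were chosen with earlier results of these data known. Rings were named by fixed rules: the 12 of smallest p in each direction, the 12 most abundant, the 10 most abundant without overlap, all called at 1 or 4 weeks, the 5 of smallest p for each change with time, up to 4 per list, and 6 hosts and 6 shares of smallest p; 13 rings outside these rules (Adgre1 exons 11 to 12, Corin, Slc8a1, Mlip exons 6 to 11, Camk2d, both Ltbp1, Phf21a, Kat6b, Ezh2 exons 2 to 15, Rere, Plce1 and Mrc1 exons 8 to 9), Dock1 exons 49 to 51, and further Smad4 and Zfp827 rings were chosen after their values were seen. Alternatives were other pseudocounts, scalings, a read filter, a replicate block, the 8-week libraries alone, limma-voom and leaving out each library. The planned count models were not run, although whole reads could be recovered from the deposited values. The limma-voom fit used those recovered reads. A result on 1 withheld item is not reported here.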

Additional observations from a re-analysis of the deposited data

Results flagged for a closer look

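In 60 groups of 4 sham libraries, for named rings and for summed lists, 5 had a library far from the other 3 by Dixon's criterion at the 95% level, which chance gives in about 1 group in 20. Snrk exons 2 to 3 had 13.8 normalized reads in sham replicate 1 and 6.36 to 6.74 in the others. Asxl2 exons 2 to 5 had 6.38 in sham replicate 1 and 1.92 to 2.20 in the others. Rabep1 exons 2 to 3 had 4.40 in sham replicate 2 and 11.5 to 12.8 in the others. Rad52 exons 10 to 11 had 40.7 in sham replicate 2 and 33.7 to 34.0 in the others. The summed mural cell markers had 13.2 in sham replicate 2 and 2.13 to 3.18 in the others. Groups of 3 TAC libraries were too small for this criterion.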

How the results depend on the processing

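No ring was called at 8 weeks and no share of host passed under any setting run: pseudocounts of 0.1 and 1, TMM scaling (own implementation), scaling to total reads, a mean of at least 5 reads, the 8-week libraries alone, the replicate block, limma-voom (not run for shares), or without any 1 library. With the mean filter 7 rings were higher and 6 lower at an unadjusted p under 0.05, among 272 tested. Without single libraries the counts ran from 27 (without TAC replicate 1) to 50 higher and from 46 to 65 lower. The effect at 8 weeks against 1 week passed in 2 rings with a pseudocount of 1, in 3 by limma-voom and in 0 to 1 without single libraries (1 without sham replicate 3); against 4 weeks, 2 passed by limma-voom. Host genes called were 0 to 1 without single libraries (1 without TAC replicate 2). The difference in junction reads, 205, ran from -311.5 (without TAC replicate 3) to 711.5 (without TAC replicate 1). The cause of these shifts was not tested, other than the smaller number of rings tested under the filter. The median log2 fold change of all rings was -0.0035 with TMM scaling, and the list medians of leukocyte and of ubiquitin genes (0.01 and 0.03) became -0.0039 and -0.014. Whether replicate numbers pair the samples was not settled. The numbers used are those of the titles, and the column names number the 8-week sham libraries differently. Deviations of equal numbers correlated at 0.066, -0.000042 and 0.018 over all rings. Over the 272 more abundant rings (mean of 5 reads or more) they correlated at 0.206, 0.169 and -0.018. Deviations of unequal numbers correlated there at -0.187 to 0.065, below the values of numbers 1 and 2. By the column names, TAC replicate 2 shares its number with sham replicate 1, and TAC replicate 3 with sham replicate 2. The deviations of these pairs correlated there at -0.158 and 0.052. With the title number as a replicate block, 0 rings were called at 8 weeks and 3 differed between 8 weeks and 1 week. In that fit 1 host, Cpeb3, passed with an adjusted p of 0.0337 (limma). A block by the numbers in the column names was not run. The planned count models were not run. The cardiomyocyte list ratio of 0.606 was 0.698 without its most abundant ring. Of the 24 rings of smallest p, 3 (Snrk, Aff3 and Prr14l) moved toward 0 by over 1.5 times without 1 library. The 8-week libraries had a median of 2 reads per ring.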
